A study of Homo sapiens with 6 samples.

Results

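The MYC, MAX and MXD network was examined in breast cancer cells through 10 genes, which were taken by name from the table of counts. The 10 genes were MYC, MAX, MXD1, MXI1, MXD3, MXD4, MNT, MGA, MLX and MLXIP, out of 33451 genes in the table. MDA-MB-453 cells are an established line from a human breast carcinoma. The circulating form of vitamin D, 25(OH)D, can be converted by cells to the active hormone. The 3 libraries of the experiment group came from MDA-MB-453 cells kept for 5 days in 100 nM 25(OH)D, and the 3 libraries of the control group came from the same cells kept for the same 5 days in the solvent, alcohol. All libraries came from a single cell line grown in medium with serum, and neither group carried a genetic change made for the experiment. The methods speak of biological replicates for the mRNA sequencing, without saying how the cultures were kept apart, and the p-values measure the spread between these libraries.

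MYC is a transcription factor that drives growth and proliferation, and it can bind DNA only when paired with MAX. MAX also pairs with the MXD proteins (MXD1, MXI1, MXD3 and MXD4), with MNT and with MGA, and these pairs occupy the same DNA sequence, the E-box, and oppose MYC there. The MXD proteins and MNT do so by recruiting the SIN3 corepressor with its histone deacetylases, and MGA by assembling a Polycomb complex. MLX is a partner of its own, which pairs with MLXIP (also called MondoA, a sensor of glucose metabolites) and with MXD1, MXD4 and MNT, and so ties the network to metabolism.

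The E-box is shown here because it is the DNA sequence on which the members of the network compete. Promoter windows from RefSeq on GRCh38.p14, from 250 bases before to 50 bases after each annotated start, were used for 9 of the 10 members, in 14 windows. No window of MYC was used. The E-box CACGTG, which reads the same on both strands, was present in 3 of these windows, those of MXD4, MNT and MLX, and in 7.26% of all 35116 windows. The 30 bases around each one are given on the strand of the gene, with the E-box in capitals.
MXD4: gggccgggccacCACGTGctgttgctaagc
MNT: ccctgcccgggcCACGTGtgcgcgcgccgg
MLX: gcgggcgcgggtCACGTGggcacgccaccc
The stretch of MXD4 lies at chr4:2262330-2262359 on the minus strand, that of MNT at chr17:2401236-2401265 on the minus strand, and that of MLX at chr17:42567038-42567067 on the plus strand. The E-box begins 238 bases before the RefSeq start in MXD4, 193 bases before it in MNT and 50 bases before it in MLX, and none of the 3 stretches overlaps an exon of its gene in the table. None of the windows of the other 6 members holds these letters. A match describes the sequence only, since binding was not measured.

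Library totals ran from 33268860 to 40928176 counts. Mitochondrial genes took 7.85% to 7.99% of the total in control and 8.89% to 9.24% in 25(OH)D, and their part in the results was not tested. The 10 markers of luminal and apocrine breast cells were all present, with a summed level of 4460 to 4606 CPM (counts relative to the library total, which TMM factors scale) in control and 4654 to 4684 CPM in 25(OH)D. Of the fibroblast markers, COL1A1 made up nearly all of a summed level of 36.5 to 39.0 CPM in control and 32.0 to 34.7 CPM in 25(OH)D, and COL3A1 is not listed. The haematopoietic markers summed to 4.52 to 6.05 CPM in control and 13.5 to 19.5 CPM in 25(OH)D, almost wholly CD68, a lysosomal membrane protein that rose with a log2 fold change of 1.69 (adjusted p = 8.16e-07), while PTPRC and CD3E had at most 6 counts in any library. The 3 endothelial markers listed reached at most 0.489 CPM together, and the 4 basal markers at most 1.39 CPM. What part the marker levels had in the results was not tested. In bulk RNA, fewer cells with a transcript and less of the transcript per cell cannot be told apart.

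All 10 members passed the low-count filter and were tested. MYC and MLXIP were lower after 25(OH)D at an adjusted p under 0.05, and 0 members were higher, whether tested with edgeR or with DESeq2. At an unadjusted p under 0.05 edgeR also gave 0 members higher, and added MNT to those that were lower. Without control replicate 1, 4 members were lower, MAX and MNT among them, and without 25(OH)D replicate 1, MXI1 was higher. The 2 of 10 members called compare with 33.8% of all 18183 genes tested, of which 17.3% were higher and 16.5% lower. At the study's own limits, an absolute log2 fold change over 1 with an unadjusted p under 0.05, MYC was the single member called, against 6.65% of all genes in either direction and 2.63% in the lower one. For 3 members, MYC, MLXIP and MNT, no library of one group reached the range of the other, against 45.7% of all genes. The members' median log2 fold change was -0.044, beside -0.011 over all genes tested. For the 8 members that did not pass, the 95% intervals of the log2 fold change lay between -0.39 and 0.50, which leaves room for levels between 0.761 and 1.42 times the control.

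**Figure D1:**
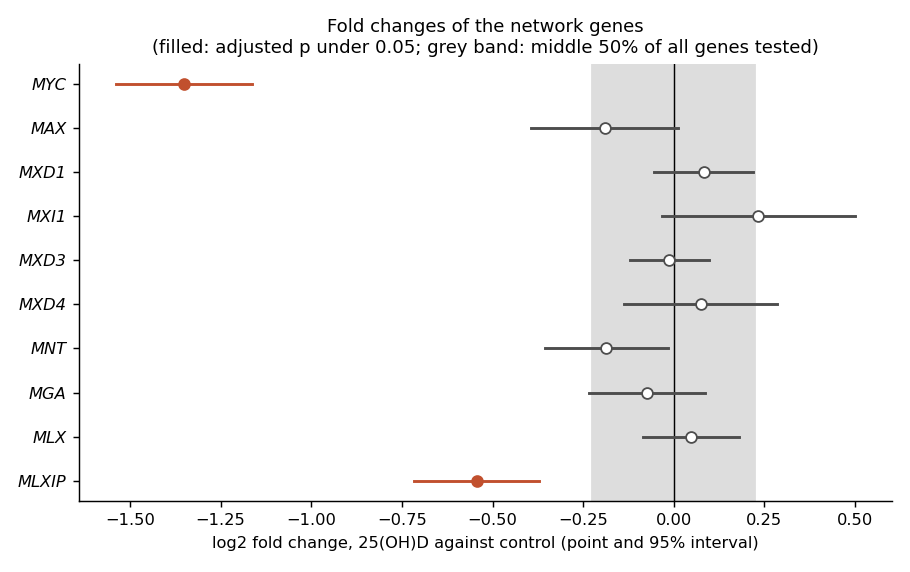
Log2 fold change of each network gene in 25(OH)D against control (points), with its 95% interval from edgeR (lines), and the middle 50% of all 18183 genes tested (grey band). MYC at -1.35 and MLXIP at -0.54 lie left of the band with their whole intervals, while the other 8 points lie inside it or, for MXI1, just beyond its right edge.

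MYC (chromosome 8, 127735434 to 127741434 on the plus strand of GRCh38) had 29.3, 27.5 and 29.4 CPM in control and 12.7, 10.98 and 10.1 CPM in 25(OH)D. Every 25(OH)D library lay far below every control library. The log2 fold change was -1.35, with a standard error (SE) of 0.0870 and an adjusted p of 2.30e-08. This was a level 0.392 times that of control with a 95% interval of 0.344 to 0.446. Of all genes tested, 1.44% had a lower log2 fold change than MYC.

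MAX (chromosome 14, 65006174 to 65102695, minus strand) is the obligatory partner of MYC and a shared partner of its antagonists. It had 45.8, 50.4 and 61.6 CPM in control and 43.8, 43.6 and 50.9 CPM in 25(OH)D. The groups overlapped, and control replicate 3 stood above all other libraries. The log2 fold change was -0.19 (95% interval -0.39 to 0.012, adjusted p = 0.142), so a change was not shown, and the interval does not reach the size of the fall in MYC. Some alternatives gave a call: without control replicate 1 the log2 fold change was -0.28 with an adjusted p of 0.0284, and without the low-count filter it was -0.19 with 0.0232. With the replicate number as a block it was -0.18 with an adjusted p of 0.0330. Without control replicate 3 it was -0.056 with an adjusted p of 0.643.

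**Figure D2:**
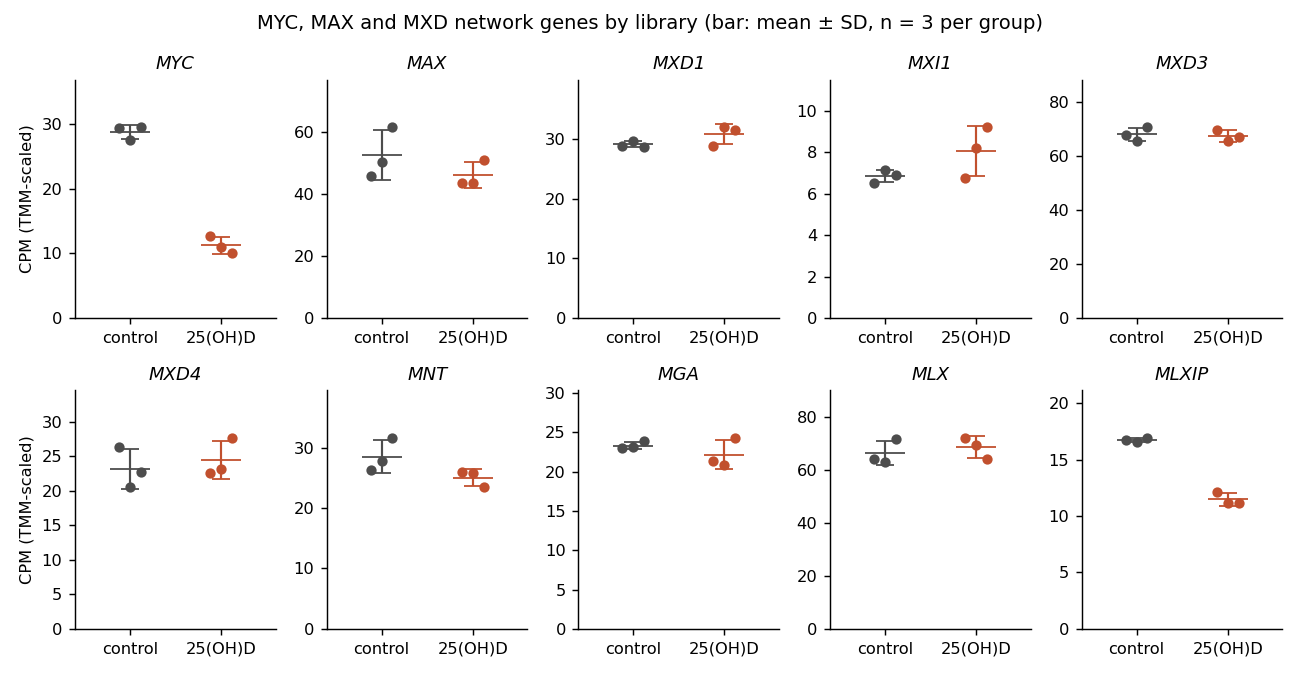
Level of each network gene in CPM, scaled by TMM factors, in the 3 control libraries (grey) and in the 3 25(OH)D libraries (orange), with the mean and SD; each vertical axis starts at 0. The orange points of MYC and MLXIP sit well below the grey ones, and the other panels show overlapping or nearly touching groups.

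The MXD genes encode the short antagonists of MYC, which are best known from cells that leave the cell cycle to differentiate, apart from MXD3, which is known from dividing cells. None of the 4 passed the test. MXD1 (chromosome 2, 69897688 to 69942945, plus strand) had 28.8, 29.6 and 28.7 CPM in control and 28.8, 31.9 and 31.5 CPM in 25(OH)D. One 25(OH)D library lay within the control range and the other two above it. Its log2 fold change was 0.082 (95% interval -0.056 to 0.22, adjusted p = 0.362).

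MXI1 (chromosome 10, 110207605 to 110287365, plus strand) had the fewest reads of the members, between 238 and 316 counts in a library. Its level was 6.53, 7.14 and 6.90 CPM in control and 6.77, 8.22 and 9.21 CPM in 25(OH)D, so 25(OH)D replicate 1 lay inside the control range and the other two above it. It had a log2 fold change of 0.23 with the widest interval of the members (-0.034 to 0.50, adjusted p = 0.173). Without 25(OH)D replicate 1 it was 0.35 with an adjusted p of 0.0447, and without 25(OH)D replicate 3 it was 0.14 with 0.460. RefSeq lists 3 separate start sites for MXI1, which a count per gene does not tell apart. Separate start sites are also listed for MAX and MGA.

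MXD3 (chromosome 5, 177301461 to 177312757, minus strand) had 67.9, 65.5 and 70.6 CPM in control and 69.7, 65.6 and 66.9 CPM in 25(OH)D. The 25(OH)D libraries all lay within the range of the control libraries. Its log2 fold change was -0.013 with the narrowest interval of the members (-0.12 to 0.096, adjusted p = 0.872). MXD4 (chromosome 4, 2247432 to 2262294, minus strand) varied more, with 26.3, 20.5 and 22.7 CPM in control and 22.6, 23.1 and 27.6 CPM in 25(OH)D. The groups overlapped, and the log2 fold change was 0.074 (95% interval -0.14 to 0.29, adjusted p = 0.608).

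MNT and MGA are the large antagonists. MNT, which is made in dividing and resting cells alike, lies on chromosome 17 from 2384060 to 2401118 on the minus strand. It had 26.2, 27.8 and 31.6 CPM in control and 25.9, 25.8 and 23.4 CPM in 25(OH)D, so that the groups did not overlap but nearly touched, at 26.2 and 25.9 CPM. The log2 fold change was -0.19 (95% interval -0.36 to -0.017, unadjusted p = 0.0337, adjusted p = 0.0865), short of the threshold. With library sizes alone in place of TMM factors it was -0.23 with an adjusted p of 0.0359, with upper-quartile factors -0.23 with 0.0411, and without control replicate 1 -0.24 with 0.0453. It was -0.10 without control replicate 3 (adjusted p = 0.385) and -0.13 without 25(OH)D replicate 3 (adjusted p = 0.280).

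MGA (chromosome 15, 41621224 to 41773081, plus strand), which also carries a T-box DNA-binding domain, had 23.0, 23.1 and 23.8 CPM in control and 21.4, 20.9 and 24.3 CPM in 25(OH)D. Its control libraries were close together, and the 25(OH)D libraries lay on both sides of them. Its log2 fold change was -0.075 (95% interval -0.23 to 0.085, adjusted p = 0.483).

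MNT had the smallest p of the 6 antagonists, and the genes most like it were sought among 9137 others with a mean of at least 10 CPM, by the root mean square difference of centred log2 CPM over the 6 libraries. The closest were MTRR, ZNF175, DOCK6, HMGN3-AS1 and TCAM1P, with differences of 0.0273 to 0.0351 on the log2 scale. Their log2 fold changes lay between -0.23 and -0.15. Values near that of MNT follow from the search itself, since it used the libraries of both groups.

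In the MLX branch, MLXIP fell and MLX did not pass the test. MLX (chromosome 17, 42567068 to 42573239, plus strand) had 64.1, 63.0 and 71.5 CPM in control and 71.9, 69.4 and 63.9 CPM in 25(OH)D. The groups overlapped, and the log2 fold change was 0.048 (95% interval -0.084 to 0.18, adjusted p = 0.597). MLXIP (chromosome 12, 122078722 to 122147347, plus strand) had 16.7, 16.5 and 16.9 CPM in control, and 12.1, 11.1 and 11.1 CPM in 25(OH)D. The control libraries lay close together, at 16.7 ± 0.185 CPM (SD, n = 3), and each 25(OH)D library lay far below them, at 11.5 ± 0.593 CPM (SD, n = 3). The log2 fold change was -0.54 (SE 0.0802, 95% interval -0.72 to -0.37, adjusted p = 1.05e-04), a level 0.686 times that of control. MLXIP passed the threshold with each library left out in turn, with log2 fold changes between -0.58 and -0.51.

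Levels were compared between genes only as RPKM, which divides each count by the gene length and the total of the library. In the control libraries MLX was highest, at 15.8 ± 1.02 RPKM (SD, n = 3), followed by MXD3 at 13.4 ± 0.443, MAX at 12.04 ± 1.80 and MYC at 9.72 ± 0.350 RPKM. MXD1 followed at 4.64 ± 0.0948 RPKM, MXD4 at 3.33 ± 0.421, MNT at 3.31 ± 0.304, MXI1 at 1.51 ± 0.0668, MGA at 1.34 ± 0.0198 and MLXIP at 1.22 ± 0.00886 RPKM. In this order the libraries of MXD3 overlapped those of MAX, and those of MXD4 overlapped those of MNT, while the other neighbours did not overlap. Several members, MLX and MXD3 among them, share exon bases with other genes, as given below, so their ranks are less certain. In the 25(OH)D libraries MYC stood at 3.69 ± 0.435 RPKM, below MXD1 at 4.76 ± 0.279 RPKM and overlapping MXD4 at 3.41 ± 0.374 RPKM. The order of the other members was the same in both groups, with MLXIP last at 0.811 ± 0.0401 RPKM.

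The balance of MYC against its MAX-binding antagonists was described by the ratio of the RPKM of MYC to the summed RPKM of MXD1, MXI1, MXD3, MXD4, MNT and MGA. The 6 antagonists summed to 27.6, 26.8 and 28.1 RPKM in control and to 26.4, 26.7 and 27.3 RPKM in 25(OH)D, and the groups overlapped. MXD3 made up 48.6% ± 0.411 of it in control and 48.0% ± 2.01 in 25(OH)D (SD, n = 3 each). MXD3 shares exon bases with PRELID1 and RAB24, as given below, so its RPKM and its part in the sum are less certain. MYC stood to this sum as 0.360, 0.348 and 0.352 in control and as 0.157, 0.136 and 0.121 in 25(OH)D. The mean ratio was 2.56 times as high in control, and the groups were far apart. The ratio of MAX to MYC went from 1.24 ± 0.179 to 2.81 ± 0.554, while that of MAX to the sum of MYC and its antagonists was 0.323 ± 0.0444 in control and 0.335 ± 0.0280 in 25(OH)D. The ratio of MLX to MLXIP was 12.9 ± 0.765 in control and 19.5 ± 0.808 in 25(OH)D (SD, n = 3 each). These ratios combine genes whose values were known, so no p is given, and they describe transcripts and not proteins. Those of MYC to the sum, of MAX to MYC and of MLX to MLXIP largely restate the falls of MYC and MLXIP.

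**Figure D3:**
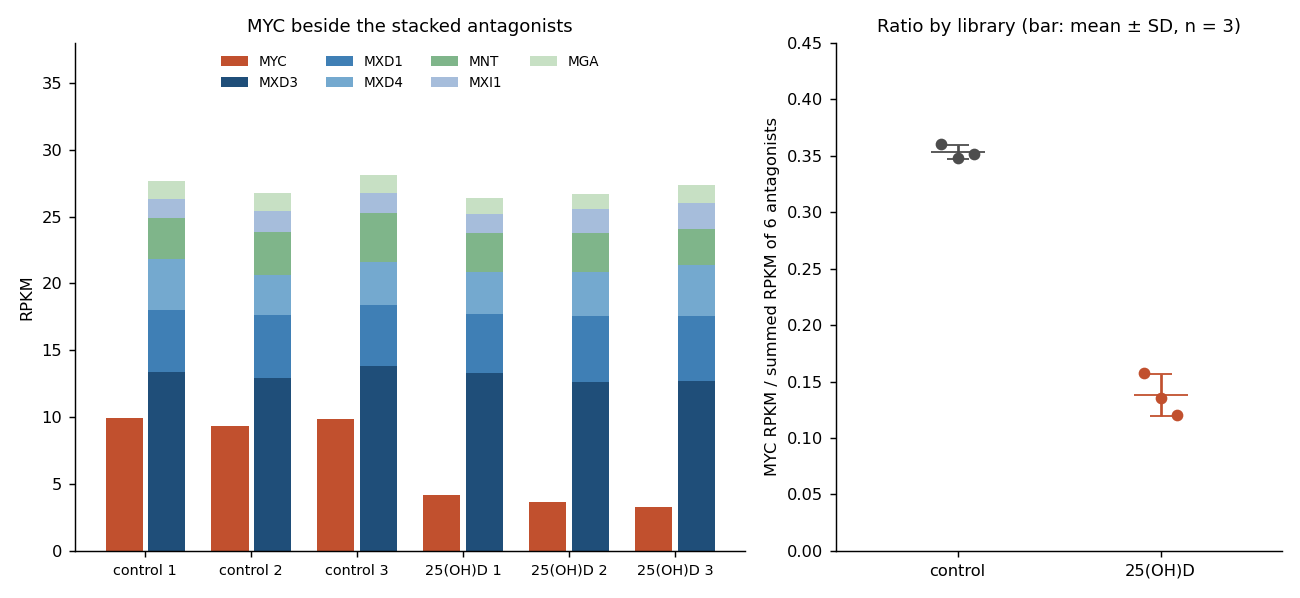
Left, RPKM of MYC (orange) beside the stacked RPKM of its 6 MAX-binding antagonists in each library; right, the ratio of MYC to that sum in each library (points) with the mean and SD (n = 3 per group). The stacks keep a height of 26.4 to 28.1 RPKM in all 6 libraries, while the ratio drops from 0.348 to 0.360 in control to 0.121 to 0.157 in 25(OH)D.

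The paralogs of the network outside the 10 members were low. MYCN, with 18, 2 and 12 counts in control and 0, 2 and 0 in 25(OH)D, did not pass the low-count filter. MLXIPL (ChREBP), the paralog of MLXIP, had at most 4 counts in any library. MYCL had 1.16 ± 0.180 CPM in control and 1.22 ± 0.117 CPM in 25(OH)D (SD, n = 3 each). Its log2 fold change was 0.078 (SE 0.259, adjusted p = 0.850). Of the noncoding genes beside MYC, PVT1 had 276, 272 and 224 counts in control and 168, 206 and 182 in 25(OH)D. It fell with a log2 fold change of -0.34 (SE 0.124, adjusted p = 0.0477), a call that held under 3 of the 14 alternatives and was lost with any single library left out other than control replicate 3. CASC11 and CCAT1 had at most 4 counts in any library.

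For list genes, levels are means ± SD over the 3 libraries of a group. Of 37 genes known to be activated by MYC, 35 were tested, of which 20 fell and 4 rose. That was 68.6% of the tested list, beside 33.8% of all genes tested. The median log2 fold change of the 35 was -0.22, beside -0.011 over all genes tested, and 29 of them lay below 0. SHMT2, the mitochondrial serine hydroxymethyltransferase, led those that fell by its p, going from 84.5 ± 1.32 to 49.1 ± 2.57 CPM (log2 fold change -0.78, SE 0.0523, adjusted p = 3.49e-08). The falls included enzymes of nucleotide and polyamine synthesis, with log2 fold changes of -0.48 for ODC1 and -0.39 for CAD, and nucleolar proteins, with -0.47 for FBL, -0.42 for GNL3 and -0.36 for DKC1. The 4 that rose were HK2, LDHA, PRDX3 and TFRC, of which PRDX3 passed under 1 of the 14 alternatives and TFRC under 6. With upper-quartile factors or library sizes alone, 2 rose. HK2, the hexokinase that traps glucose in the cell, rose from 187 ± 6.92 to 217 ± 8.63 CPM (log2 fold change 0.21, SE 0.0433, adjusted p = 0.00149). TERT and CCND2 had at most 8 counts in any library and were not tested.

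Of 8 genes known to be repressed by MYC, 6 were tested, of which 3 rose and 2 fell. That was 83.3% of a short list, beside 33.8% of all genes tested. GADD45A, a stress protein that restrains the cell cycle, rose from 24.6 ± 1.27 to 63.7 ± 2.15 CPM (log2 fold change 1.37, SE 0.0597, adjusted p = 3.05e-10). The inhibitors of cyclin-dependent kinases moved in different directions: CDKN1A (p21) rose with a log2 fold change of 1.26 and CDKN2B (p15) with 0.67, while CDKN1B (p27) fell with -0.30. NDRG1, a gene of stress and differentiation, fell from 27.1 ± 3.81 to 8.51 ± 1.71 CPM (log2 fold change -1.67, SE 0.131, adjusted p = 2.09e-07). The median log2 fold change of the 6 was 0.28, and with one library left out it lay between 0.13, without control replicate 2, and 0.57, without control replicate 1.

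Of 12 genes known as targets of MLX with MLXIP or its paralog, 11 were tested, of which 4 rose and 2 fell. That was 54.5% of the tested list, beside 33.8% of all genes tested. The 2 that fell were PFKFB3, which makes an activator of glycolysis, and TXNIP, an inhibitor of glucose uptake. PFKFB3 fell from 84.4 ± 2.40 to 40.6 ± 3.91 CPM (log2 fold change -1.05, SE 0.0656, adjusted p = 1.62e-08), and TXNIP had a log2 fold change of -0.56 (adjusted p = 1.88e-06). ARRDC4, the other arrestin-like target, had -0.019 (adjusted p = 0.888). The 4 that rose were HK2, which stands in both lists, and the genes of fatty acid synthesis ACACA, ELOVL6 and FASN. The list does not separate targets of MLXIP from those of MLXIPL, which had at most 4 counts in any library. ACACA, the acetyl-CoA carboxylase, rose from 122 ± 5.31 to 207 ± 7.65 CPM (log2 fold change 0.77, SE 0.0454, adjusted p = 9.73e-09). The median log2 fold change of the 11 was 0.031, beside -0.011 over all genes tested. Its sign turned with the scaling, to -0.0099 with upper-quartile factors and -0.013 with library sizes alone. The median over all genes tested moved too, to -0.053 and -0.055 with these scalings. The median of the 11 was 0.17 without control replicate 2 and -0.031 without control replicate 3.

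**Figure D4:**
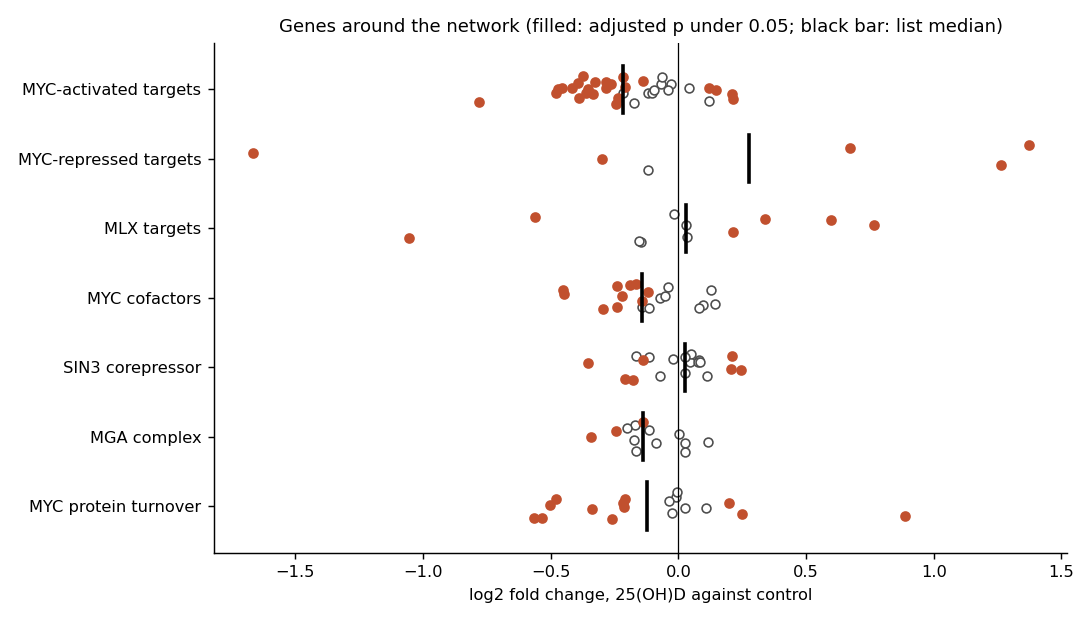
Log2 fold change of each tested gene of 7 lists around the network in 25(OH)D against control (points, spread vertically for clarity), filled where the adjusted p was under 0.05, with the list median (black bar). Points of the genes activated by MYC lie mostly left of 0, with a median of -0.22, while those repressed by MYC and the MLX targets spread over both sides.

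Of 19 cofactors of MYC, all tested, 10 fell and 0 rose with edgeR at an adjusted p under 0.05. That was 52.6% of the list, beside 33.8% of all genes tested. With DESeq2 2 rose, and edgeR gave 2 as higher at an unadjusted p under 0.05, EP300 among them in both. RUVBL1, an ATPase of chromatin complexes that MYC binds, fell from 177 ± 1.24 to 129 ± 6.43 CPM (log2 fold change -0.45, SE 0.0440, adjusted p = 1.74e-06), and its partner RUVBL2 fell with -0.22. KAT2A, a histone acetyltransferase, fell with -0.45, while TRRAP, the scaffold on which these enzymes sit, had -0.040 (adjusted p = 0.714). The median of the 19 was -0.14.

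The SIN3 corepressor, through which the MXD proteins and MNT act, was represented by 19 genes, all tested, of which 3 rose and 4 fell. That was 36.8% of the list, close to the 33.8% of all genes tested. The median log2 fold change of the 19 was 0.027. Its sign turned with the scaling, to -0.014 with upper-quartile factors and -0.017 with library sizes alone. The median over all genes tested was -0.053 and -0.055 with these scalings, in place of -0.011. SIN3A, the scaffold, fell from a mean of 104 CPM to one of 89.9 CPM (log2 fold change -0.21, SE 0.0442, adjusted p = 0.00200), and SAP18 rose from 208 ± 3.92 to 240 ± 5.99 CPM (log2 fold change 0.20, SE 0.0379, adjusted p = 7.32e-04). Of the catalytic subunits, HDAC2 fell with -0.14, a call lost without control replicate 2 or 3 or 25(OH)D replicate 2 or 3, and HDAC1 had 0.027 (adjusted p = 0.679).

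Of 13 genes of the MGA complex, all tested, 3 fell and 0 rose with edgeR at an adjusted p under 0.05. That was 23.1% of the list, below the 33.8% of all genes tested. With DESeq2, or at an unadjusted p under 0.05 in edgeR, 0 rose. With upper-quartile factors or library sizes alone, 5 fell. RYBP, a subunit of the Polycomb complexes with RING proteins, fell from 55.4 ± 2.23 to 43.7 ± 0.421 CPM (log2 fold change -0.34, SE 0.0534, adjusted p = 1.74e-04). The other 2 were CBX3 with -0.25 and HDAC2, which stands in both lists. PCGF6, the PCGF subunit of the complex, had a log2 fold change of 0.11 (SE 0.0893, adjusted p = 0.360). The median of the 13 was -0.14.

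Of 18 genes that set the stability of the MYC protein, all tested, 9 fell and 3 rose, with a median log2 fold change of -0.12. That was 66.7% of the list called, beside 33.8% of all genes tested. The ubiquitin ligases moved in different directions. FBXW7, which marks phosphorylated MYC for degradation, fell from 100.0 ± 2.73 to 69.0 ± 0.623 CPM (log2 fold change -0.54, SE 0.0450, adjusted p = 4.01e-07). HUWE1, a large ubiquitin ligase with MYC among its substrates, rose from 606 ± 18.1 to 1122 ± 22.8 CPM (log2 fold change 0.89, SE 0.0350, adjusted p = 1.03e-10). SKP2 fell with -0.50, and the kinases PLK1 and AURKA, which protect MYC family proteins and are themselves made in dividing cells, fell with -0.57 and -0.26. The MYC protein was not measured.

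Several members share exon bases with other genes, which limits how far their reads can be assigned. MXD3 shares 926 of its 5154 exon bases with RAB24 on the same strand and 1158 with PRELID1 on the other, whose log2 fold changes were 0.15 (adjusted p = 0.124) and 0.14 (adjusted p = 0.292). MXD1 shares 237 of 6351 bases with SNRNP27 on the same strand, which is far more abundant (178 ± 8.53 CPM in control) and had a log2 fold change of 0.099 (adjusted p = 0.126). MLX shares 770 of 4259 bases with PSMC3IP on the opposite strand, which fell with -0.19 (adjusted p = 0.0286), a call lost without control replicate 3 or 25(OH)D replicate 2 or 3. MNT shares 1065 of 8728 bases with RP1-59D14.1, and MAX 184 of 4430 bases with RP11-840I19.3, both on the opposite strand. The log2 fold changes were -0.46 for RP1-59D14.1 (adjusted p = 0.368) and -0.20 for RP11-840I19.3 (adjusted p = 0.114). MXI1 and MGA share bases with the opposite-strand genes RP11-549L6.3 and RP11-107F6.3, which had at most 4 counts in any library. MYC, MXD4 and MLXIP share none.

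**Figure D5:**
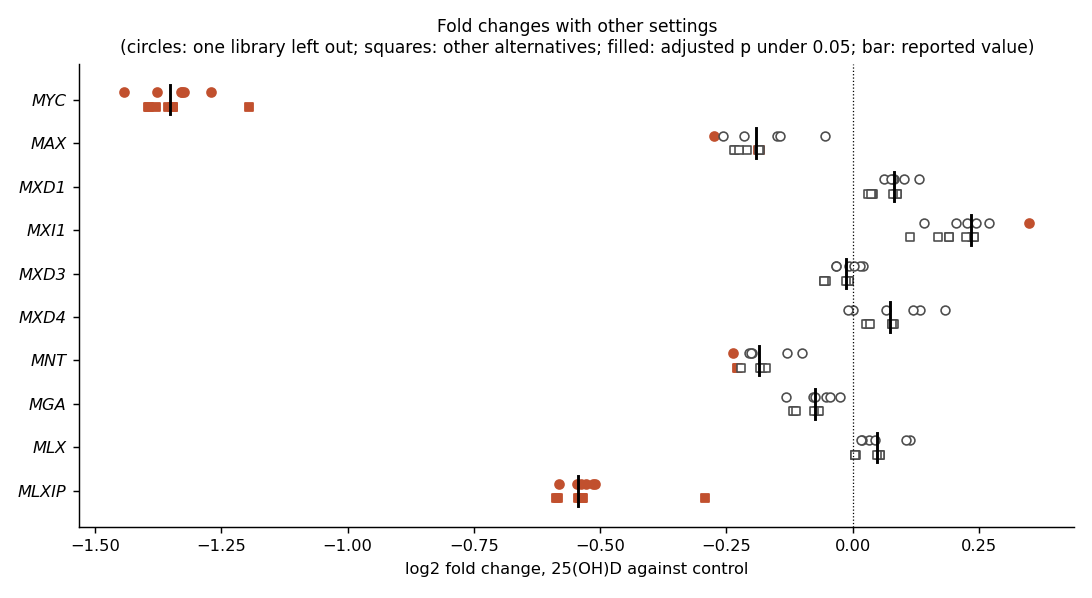
Log2 fold change of each network gene as reported (black bar), with one library left out (circles) and with the other alternatives of normalization, filter, test and block (squares), filled where the adjusted p was under 0.05. All points of MYC and MLXIP are filled and left of 0, between -1.44 and -1.20 for MYC and between -0.59 and -0.29 for MLXIP, while MAX and MNT have 3 filled points each and MXI1 has 1.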

How the data were processed

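MDA-MB-453 mRNA was sequenced in 3 control and 3 25(OH)D libraries, grouped by their titles. The authors deposited counts of reads per gene, which per the submitters' processing notes were made on GRCh38 with Trimmomatic 0.36 and featureCounts of Subread 1.5.1. The aligner and the annotation release are not given in the sources used here. The authors also deposited RPKM values, which equalled count divided by gene length and library total (largest relative difference 2.23e-13). Among counts of 1 to 9, between 65.3% and 68.3% were even, as arises when both mates of a pair are counted, so no counting interval is given. Depth was 33268860 to 40928176 counts per library.

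Counts were analysed with edgeR 4.0.16 in R 4.3.3 (TMM, default low-count filter with a minimum count of 10, quasi-likelihood test without covariates, Benjamini-Hochberg adjustment over 18183 genes). The standard error is the absolute log2 fold change over the root of the F statistic. DESeq2 1.42.0, limma 3.58.1 on log2(RPKM + 1) and log2(RPKM + 0.1), other scalings, no filter, the replicate number as a block and the omission of each library were alternatives. The test was checked on simulated data. Tables were made with Python 3.11.15, pandas 2.3.3 and matplotlib 3.10.9.

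The members and the gene lists, written from general knowledge, were chosen with earlier results of these data known. All members were named, with the gene of smallest p in each direction of each list, the genes of lists of 3 or fewer, the genes sharing exon bases with members, and the 5 genes most like the antagonist of smallest p. Further list genes were named after their values were seen. A gene that this rule names is not reported here. FAM60A and KIAA1524 are the table's names for SINHCAF and CIP2A. The promoters are those of RefSeq for GRCh38.p14.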

Additional observations from a re-analysis of the deposited data

How the results depend on the processing

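MYC and MLXIP kept their direction and their side of the threshold under all 14 alternatives. The number of members called lower was 2, and between 2 and 4 with one library left out; the number called higher was 0, and between 0 and 1 with one library left out. For MAX the log2 fold change was -0.19 without the low-count filter (adjusted p = 0.0232) and between -0.28 and -0.056 with one library left out. For MNT it was -0.23 with upper-quartile factors (adjusted p = 0.0411), -0.23 with library sizes alone (adjusted p = 0.0359) and between -0.24 and -0.10 with one library left out. The median over all genes tested was -0.053 with upper-quartile factors and -0.055 with library sizes alone, in place of -0.011. MXI1 lay between 0.14 and 0.35 with one library left out. The value of MXD3 is near 0 and lay between -0.034 and 0.021 with one library left out, turning to 0.021 without control replicate 3, 0.014 without 25(OH)D replicate 2 and 0.0034 without 25(OH)D replicate 3; that of MXD4 lay between -0.010 and 0.18, turning to -0.010 without 25(OH)D replicate 3. MYCL, at 0.078, lay between -0.0088, without control replicate 1, and 0.21. The cause of these moves was not tested, apart from the loss of a library itself.

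The median log2 fold change of the MYC cofactors was -0.18 with upper-quartile factors, -0.19 with library sizes alone and -0.18 with limma on log2(RPKM + 0.1). That of the genes activated by MYC was -0.26 with upper-quartile factors, -0.26 with library sizes alone, -0.24 with limma on log2(RPKM + 1) and -0.26 with limma on log2(RPKM + 0.1). Over all genes tested the median was -0.053 with upper-quartile factors and -0.055 with library sizes alone. It was -0.030 with limma on log2(RPKM + 1) and -0.052 with limma on log2(RPKM + 0.1). With one library left out, the median lay between 0.13 and 0.57 for the genes repressed by MYC and between -0.031 and 0.17 for the MLX targets. The following counts of list genes that rose moved by over 1.5 times. MYC cofactors went from 0 to at most 2, and SIN3 genes from 3 to 1 with limma on log2(RPKM + 1). Genes of MYC turnover went from 3 to 1 with limma, and genes activated by MYC from 4 to 1 with limma. The count of genes activated by MYC was 2 with upper-quartile factors or library sizes alone. It was also 2 without control replicate 1 or 25(OH)D replicate 1 or 2. Those of the MGA complex that fell went from 3 to 5 with upper-quartile factors or library sizes alone. The difference in the ratio of MYC to its antagonists, 25(OH)D minus control, was -0.215, and -0.263 when the 4 MXD genes alone stood in the denominator, by construction.

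No pairing by replicate number was seen over all genes, where the deviations of same-numbered libraries correlated at -0.072, -0.012 and -0.046 over 18183 genes. These correlations cannot show whether same-numbered cultures were set up together. With the replicate number as a block, 3057 genes were higher and 2896 lower, in place of 3138 and 3004, and MAX passed the threshold (log2 fold change -0.18, adjusted p = 0.0330), which made 3 members lower. With 3 libraries a group, changes of members within the intervals given could not be shown.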
